A study of Mus musculus with 4 samples.

Results

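The transcription factor genes Egr1, Egr2, Egr3, Klf2, Klf4, Fos, Jun, Junb, Nr4a1 and Myc were examined in mouse macrophages on a single-colour Affymetrix array. They were chosen by gene symbol. All 10 were measured, out of 19938 genes with a probe set of their own, and each had 1 probe set. The series asked how M1 and M2 macrophages differ in their response to interleukin-1α (IL-1α), an inflammatory cytokine. It holds 4 arrays and so 1 array per group: M2 cells with IL-1α, M2 cells with vehicle, M1 cells with IL-1α and M1 cells with vehicle. All cells were macrophages grown from C57BL/6N bone marrow in 10 ng/mL M-CSF, the growth factor that drives macrophage differentiation, and harvested on day 9. M2 cells received 20 ng/mL interleukin-4 and M1 cells 10 ng/mL interferon-γ, each for 48 h, and IL-1α was given at 10 ng/mL for 24 h. No group was left unpolarised, so a difference between M2 and M1 cannot be assigned to interleukin-4 or to interferon-γ. No group has a replicate, and a difference between 2 arrays therefore has no standard deviation and no test.

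These 10 genes are early response genes or close relatives of them. Growth factors, cytokines and stress switch many of them on within minutes through kinase cascades that end on factors such as SRF and CREB, and their transcripts usually decay within hours. EGR proteins are zinc finger activators, and Egr2 is known as a factor of interleukin-4 activated mouse macrophages. KLF2 and KLF4 restrain inflammatory gene expression in myeloid cells, and KLF4 is known to work with STAT6 in interleukin-4 activation. FOS, JUN and JUNB pair to form AP-1, NR4A1 is an orphan nuclear receptor induced by many stimuli, and MYC drives growth and ribosome production.

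Serum response factor binds the CArG box, the element through which many early response genes are switched on. RefSeq promoter windows (GRCm38.p6) covering 250 bases before and 50 bases from each start site were therefore searched. Of the 10 genes, 7 had a window, with 11 windows in all. Egr1, Egr3 and Myc had no window and were not searched. The stretches below are shown because Egr2 differed more between the phenotypes than any other of the 10 genes, and because Klf2 and Nr4a1 return in the IL-1α comparisons. Capitals mark the match. The Egr2 stretches lie on the plus strand at chr10:67537484-67537513 and chr10:67537787-67537816, that of Klf2 on the plus strand at chr8:72318853-72318882, and that of Nr4a1 on the plus strand at chr15:101266776-101266805.
Egr2, first CArG box: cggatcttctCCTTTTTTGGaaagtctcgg
Egr2, second CArG box: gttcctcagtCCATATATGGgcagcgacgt
Klf2, EGR element: gggcccggccGCGGGGGCGgggcttgagga
Nr4a1, EGR element on the opposite strand: gcgtcagtggCGCCCCCGCccctctccatg

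A CArG box was found in 4 of the 5 Egr2 windows, 3 of which overlap and share the second box, and in 1.63% of all 32851 windows. The EGR element (GCGNGGGCG) was found in Klf2, Klf4 and Nr4a1, and in 5.55% of all windows. An E-box (CACGTG, 7.15% of all windows) was found in Egr2 and Klf4. Both strands were searched, and no 2 matches to different elements overlapped. The windows of Fos, Jun and Junb held no exact match to the elements searched. Variants of these patterns, and sites more than 250 bases before a start site, were not searched, so these genes may still hold such elements. Among the 11 windows there was also no match to CRE (TGACGTCA, 1.79% of all windows), AP-1 (TGANTCA, 7.81%), the STAT6-type element (TTC and GAA set 4 bases apart, 6.95%) or GAS (TTCNNNGAA, 8.3%). Matches describe the letters in these windows and were not tied to binding.

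The arrays were checked before the comparisons. Levels are RMA signals on the log2 scale, and a difference of 1 is 2-fold. A floor was set at the median gene, a signal of 7.653, because no detection calls were used, and a signal under it was not shown to be above background. All 7 macrophage markers (among them Csf1r, Cd68 and Itgam) lay above the floor on all 4 arrays. With vehicle, M2 exceeded M1 by at least 2-fold in all 5 interleukin-4 markers, and lay below it by that much in 4 of the 5 interferon-γ markers measured. Some markers of other cells moved with the phenotype too. Of 7 neutrophil markers, 4 reached the floor, all on an M2 array, and Ngp read 9.93 and 9.92 in M2 with IL-1α and vehicle, against 7.51 and 7.41 in M1. Of 5 dendritic cell markers, 3 reached it, in both directions. Clec9a read 5.71 and 5.62 in M2 with IL-1α and vehicle, against 9.59 and 9.97 in M1. Xcr1 read 6.38 and 6.49 in M2, against 8.24 and 8.44 in M1, whereas Zbtb46 read 7.89 and 7.94 in M2, against 7.43 and 7.46 in M1. Of 6 stromal and endothelial markers, 4 reached the floor, on all 4 arrays. Col1a1 read 8.70 and 8.69 in M2 with IL-1α and vehicle, against 8.69 and 8.60 in M1. Pecam1 read 8.80 and 8.92 in M2, against 8.33 and 8.18 in M1. The part of such other cells in the differences below was not tested. In these bulk arrays, fewer cells of a type and less RNA per cell cannot be told apart.

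M2 cells differed from M1 cells mainly in Egr2 and Myc, which were higher by 5.30 and 3.91 with vehicle, or 39.4-fold and 15.0-fold. Nr4a1 was higher in M2 by 1.15. Jun and Egr1 were modestly higher in M2, Fos, Junb and Klf4 modestly lower, and Egr3 and Klf2 did not pass the test. With vehicle, M2 exceeded M1 by at least 2-fold in 3 of the 10 genes, against 7.07% of 10384 genes, and 0 were at least 2-fold lower, against 6.88%. With IL-1α the counts were again 3 and 0, against 8.23% and 6.11% of 10365 genes, and the 3 genes were again Egr2, Myc and Nr4a1.

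**Figure D1:**
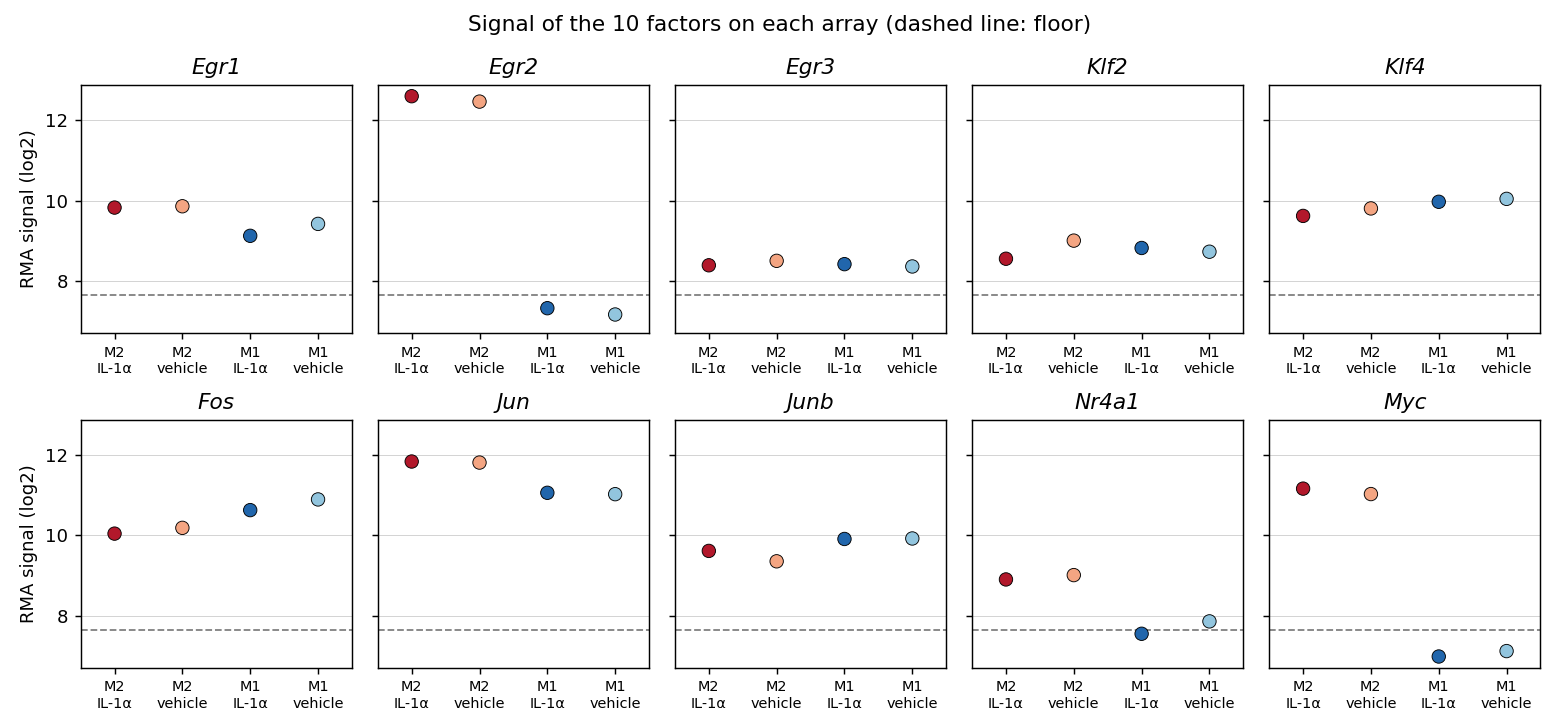
RMA signal (log2) of each of the 10 factors on the 4 arrays, 1 point per array, with the floor of 7.653 as a dashed line. Egr2 and Myc sit well above the floor on both M2 arrays and below it on both M1 arrays, whereas Egr3 reads between 8.36 and 8.50 everywhere.

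A test was available from an additive limma model of phenotype and treatment over 10512 genes. The phenotype effect shared by the 2 treatments is set against departure from additivity, where noise and unequal responses to IL-1α cannot be told apart. That departure is taken mostly from all genes of like signal (10.26 degrees of freedom) and less from the gene itself (1 degree). No spread between cultures or animals enters the test. limma called 5 of the 10 genes higher in M2, against 33.4% of all genes, and 3 lower, against 29.5%. The 8 calls among 10 stand beside 62.8% of all genes called in either direction, so most genes that entered the fit passed this test and the count says little about these factors as a group.

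Of the EGR genes, Egr2 had signals of 12.60 and 12.47 in M2 with IL-1α and vehicle, against 7.32 and 7.17 in M1 in the same order. Both M2 arrays were high, and both M1 arrays lay under the floor, so the size of the difference is uncertain. The M2 signals stood 4.95 (IL-1α) and 4.81 (vehicle) above the floor itself. With vehicle its difference ranked 9 from the top of 10384 genes, and with IL-1α, where it was 5.28, it ranked 10 from the top of 10365. The effect common to both treatments was 5.29 ± 0.07 (SE, limma adjusted p = 2.0e-13).

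Egr1, the best known early growth response factor, read 9.83 and 9.86 in M2 with IL-1α and vehicle, against 9.13 and 9.42 in M1. Both M2 arrays lay above both M1 arrays, and the M1 array with IL-1α was the lowest. The common effect was 0.57 ± 0.09 (SE, limma adjusted p = 0.000118). Egr3, a related factor, read 8.39 and 8.50 in M2 with IL-1α and vehicle, against 8.42 and 8.36 in M1. Its values overlapped between the phenotypes, and the common effect of 0.06 ± 0.10 (SE) did not pass (limma adjusted p = 0.641). The 3 EGR genes thus differed by 39.4-fold, 1.36-fold and 1.10-fold between the vehicle arrays, in the order Egr2, Egr1, Egr3.

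Klf2 read 8.56 and 9.01 in M2 with IL-1α and vehicle, against 8.82 and 8.73 in M1 in the same order. The M2 arrays were the lowest and the highest of the 4. The M2 minus M1 difference was 0.28 with vehicle and -0.27 with IL-1α, and the common effect was 0.00 ± 0.12 (SE, limma adjusted p = 0.980). Klf4 read 9.62 and 9.81 in M2 with IL-1α and vehicle, against 9.97 and 10.05 in M1. Both M2 arrays lay below both M1 arrays, and Klf4 was lower in M2 by a common effect of -0.29 ± 0.08 (SE, limma adjusted p = 0.00508). Klf4, a gene linked to interleukin-4 activation, was therefore not higher in the M2 arrays.

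The 3 AP-1 genes did not share a direction. Jun read 11.84 and 11.81 in M2 with IL-1α and vehicle, against 11.06 and 11.03 in M1, and was higher in M2 by 0.78 ± 0.06 (SE, limma adjusted p = 2.01e-07). Fos read 10.05 and 10.19 in M2 with IL-1α and vehicle, against 10.63 and 10.90 in M1, and was lower in M2 by a common effect of -0.65 ± 0.07 (SE, limma adjusted p = 6.60e-06). Junb read 9.62 and 9.36 in M2, against 9.91 and 9.92 in M1, and was lower by a common effect of -0.43 ± 0.09 (SE, limma adjusted p = 0.000894). For each of these 3 genes the M2 and M1 arrays did not overlap. The M2 minus M1 differences in Junb were -0.30 with IL-1α and -0.57 with vehicle, the widest gap between treatments within AP-1.

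Nr4a1 read 8.90 and 9.01 in M2 with IL-1α and vehicle, against 7.55 and 7.86 in M1. The M1 array with IL-1α lay under the floor and that with vehicle just above it, so the size is uncertain. The gene was higher in M2 by 1.25 ± 0.10 (SE, limma adjusted p = 3.59e-07). Myc read 11.17 and 11.03 in M2 with IL-1α and vehicle, against 6.99 and 7.12 in M1, where both arrays lay under the floor. Its difference ranked 27 from the top with vehicle and 26 with IL-1α, where it was 4.18, or 18.1-fold. The common effect was 4.04 ± 0.09 (SE, limma adjusted p = 6.47e-12), and the M2 signals stood 3.51 (IL-1α) and 3.38 (vehicle) above the floor.

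**Figure D2:**
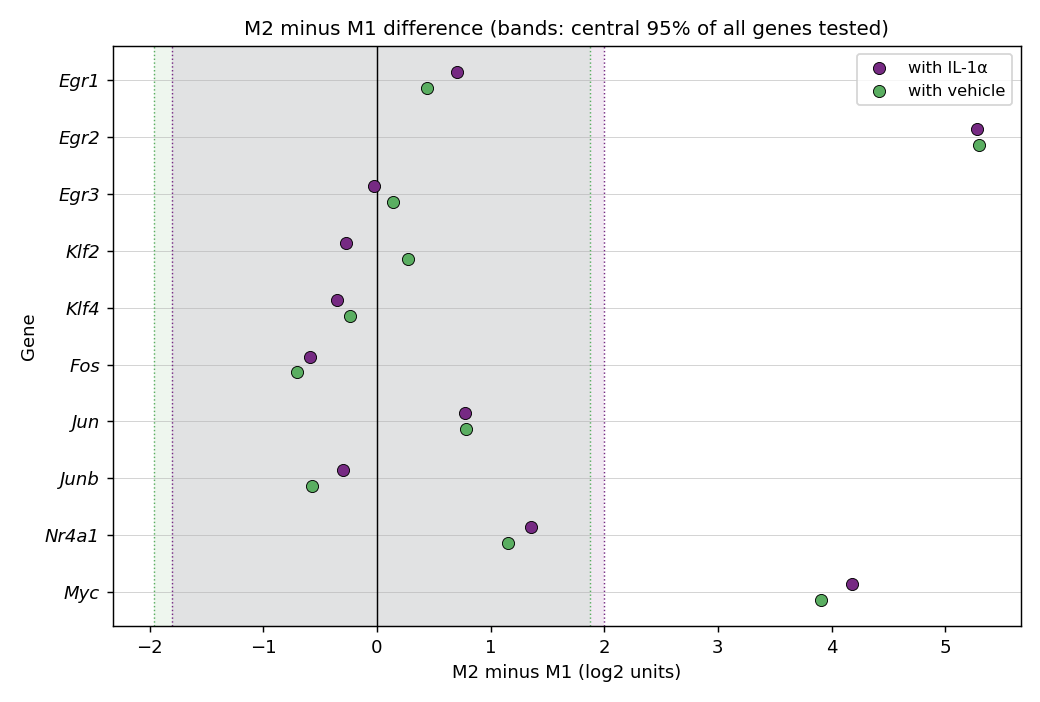
M2 minus M1 difference (log2 units) of each factor with IL-1α and with vehicle, 1 point per pair of arrays. The shaded bands hold the central 95% of all genes tested, -1.80 to 1.999 with IL-1α and -1.96 to 1.87 with vehicle, and Egr2 and Myc lie beyond both.

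None of the 10 genes differed by 2-fold between IL-1α and vehicle in either phenotype. IL-1α was given for 24 h, so an earlier rise and fall of these transcripts was not measured. In M2, 0 of 10 reached 2-fold, where 36 of 10168 genes (0.354%) were at least 2-fold higher and 0 were lower. In M1, 8 of the 10 were at the floor and 0 reached 2-fold, as did 0 of 9895 genes. The IL-1α effect shared by both phenotypes passed in limma for 0 of 10512 genes after adjustment, and for 648 (6.16%) at an unadjusted p under 0.05. Of the 10 factors, that held for Fos alone, with -0.20 ± 0.07 (SE, limma adjusted p = 0.578). The differences below are therefore small values from pairs of single arrays, and none is a call.

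The most distinct value was that of Klf2 in M2, which was lower with IL-1α by a difference of -0.45, or 1.37-fold. It ranked 12 from the bottom of 10168 genes, of which the lowest had -0.52. In M1 the Klf2 difference was 0.09, so the difference of responses was -0.54 and ranked 20 from the bottom of 10512 genes. Klf4 had -0.19 in M2 and -0.07 in M1. Both KLF genes thus read lower with IL-1α in M2, where all genes had a median of 0.05 and 69.6% lay above 0. In all, 6 of the 10 factors lay below 0 in M2. Of 12 other KLF and SP genes at the floor, 7 lay above 0 there, with a median of 0.04.

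In M1, the lowest values among the factors belonged to Nr4a1 (-0.31), Egr1 (-0.30) and Fos (-0.27). They ranked 82, 99 and 155 from the bottom of 9895 genes, whose differences had a standard deviation of 0.11 over genes. Nr4a1 read under the floor on the M1 array with IL-1α. In M2 the same genes had -0.11, -0.03 and -0.14. Nr4a2, an orphan receptor of the same family as Nr4a1, had -0.32 in M1 and -0.26 in M2. Junb had the highest value in M2 (0.26) and -0.01 in M1. Jun lay close to its vehicle level in both phenotypes, with 0.03 in M2 and 0.03 in M1.

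Egr2 had 0.13 with IL-1α in M2 and 0.16 in M1, where both signals lay under the floor. Myc had 0.14 in M2 and -0.14 in M1, again with both M1 signals under the floor. The phenotype differences of these genes were thus 5.28 (Egr2) and 4.18 (Myc) with IL-1α, against 5.30 and 3.91 with vehicle. For the difference of responses between M2 and M1, the contrast named in the series, 0 of 10 genes reached 2-fold, where 34 of 10512 genes (0.323%) were at least 2-fold and positive. The 4 arrays leave no degree of freedom to test that contrast.

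**Figure D3:**
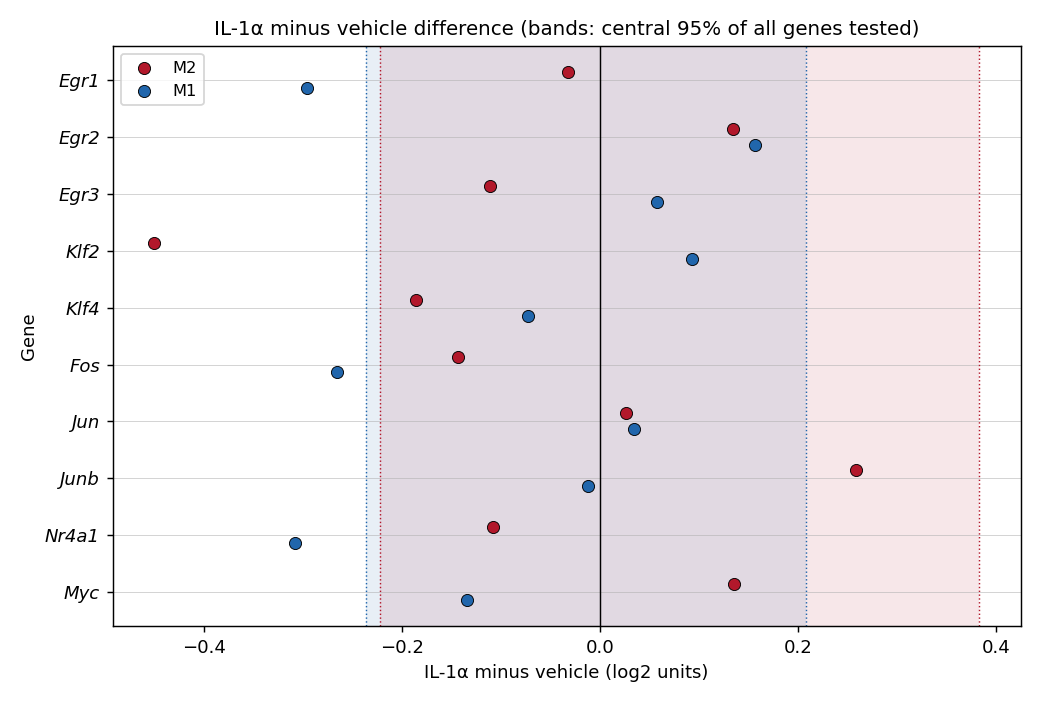
IL-1α minus vehicle difference (log2 units) of each factor in M2 and in M1, 1 point per pair of arrays. The shaded bands hold the central 95% of all genes tested, -0.22 to 0.38 in M2 and -0.24 to 0.21 in M1; Klf2 in M2 and Egr1, Fos and Nr4a1 in M1 lie below them.

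The genes around these factors were then described from lists of family members, partners, upstream kinases and targets. The EGR corepressors differed in direction: Nab2 was higher in M2 by 0.77 ± 0.06 and Nab1 lower by -1.08 ± 0.08 (SE, limma adjusted p = 6.09e-07 and 2.13e-07). Egr4 had 0.19 ± 0.11 (SE, limma adjusted p = 0.150). Of 12 other KLF and SP genes at the floor, limma called 4 higher and 4 lower in M2, near the share of all genes (62.8% in either direction). Klf9, a factor known for its induction by glucocorticoids, was 6.98-fold higher in M2 with vehicle (10.54 against 7.73) and Klf6 2.24-fold lower (11.53 against 12.69), both called. Klf11 and Klf8, with vehicle differences of 0.73 and -0.84, were also called.

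Of 14 other AP-1 family genes at the floor, limma called 4 higher and 6 lower, beside 33.4% and 29.5% of all genes. The list median was -0.28 with vehicle, where all genes had 0.01. The FOS-related Fosl2 was 4.52-fold higher in M2 with vehicle (11.14 against 8.96), and Batf3 2.64-fold higher (9.51 against 8.10). The AP-1 repressor Jdp2 was 7.19-fold lower (8.42 against 11.26), and Batf2, an interferon-induced family member, 9.35-fold lower (8.30 against 11.53). All 4 were called. Fos and Fosl2 therefore moved in opposite directions, and the larger differences lay in family members other than Fos, Jun and Junb. Of the other NR4A genes, only Nr4a2 reached the floor; it was lower in M2 by a common effect of -0.46 ± 0.09 (SE, limma adjusted p = 0.000799), opposite to Nr4a1.

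The MYC network list holds the partner MAX, repressors that compete for it, and further MYC and MLX family genes. Of its 10 genes at the floor, limma called 3 higher and 5 lower, beside 33.4% and 29.5% of all genes. The repressor genes split: Mxd4 was 3.34-fold higher in M2 with vehicle (11.05 against 9.31) and Mxi1 1.75-fold higher (9.25 against 8.44), while Mxd1 was 4.58-fold lower (9.47 against 11.66). Max was 1.31-fold lower. Of 26 known MYC targets in ribosome production and metabolism at the floor, limma called 22 higher and 2 lower in M2, beside the same shares of all genes, and the list median was 0.59 with vehicle. Srm, the spermidine synthase gene, was 2.66-fold higher and the ribosome biogenesis gene Rrs1 2.32-fold higher, although the M1 signal of Rrs1 lay under the floor. The polyamine enzyme gene Odc1 did not pass (-0.10 ± 0.08 SE, limma adjusted p = 0.329), and the cap-binding factor gene Eif4e was called lower with -0.35 with vehicle. At 2-fold with vehicle, 3 of the 26 targets were higher and 0 lower, beside 7.07% and 6.88% of all genes. Most of their differences were thus small beside that of Myc itself.

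Of 26 other early response and MAPK feedback genes at the floor, limma called 13 higher and 9 lower in M2, beside 33.4% and 29.5% of all genes, with a list median of 0.12 with vehicle. Dusp4, a nuclear phosphatase that switches off MAP kinases, was 9.85-fold higher in M2 with vehicle, although its M1 signal of 7.64 lay just under the floor, and the RNA-decay factor Zfp36l1 3.31-fold higher. Dusp1, another phosphatase of MAP kinases, was 1.90-fold lower and the G-protein regulator Rgs1 1.93-fold lower, both called. With IL-1α, 20 of the 26 lay above 0 in M2, where 69.6% of all genes did, and 10 of the 26 in M1, where 49.1% did. No member of this list reached 2-fold in either phenotype, and the largest differences were 0.52 in M2 and 0.27 in M1 in size.

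Of 20 genes of the SRF, CREB and MAP kinase cascade at the floor, limma called 6 higher and 9 lower, beside 33.4% and 29.5% of all genes. Srf itself was higher in M2 by 0.41 ± 0.07 (SE, limma adjusted p = 0.000437), and the kinase gene Rps6ka3 by 0.99 ± 0.06 (SE, limma adjusted p = 4.03e-08). The SRF partner Elk3 was 2.24-fold lower with vehicle and the CREB relative Crem 2.53-fold lower, both called. Heat shock genes, which encode chaperones, were called higher in 1 of 6 and lower in 4, beside the same shares of all genes, with Dnajb1 at -0.63 and Hspa1a at -0.53 with vehicle and Hsph1 at 0.83. Hspa8 did not pass (-0.03 ± 0.04 SE, limma adjusted p = 0.507).

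**Figure D4:**
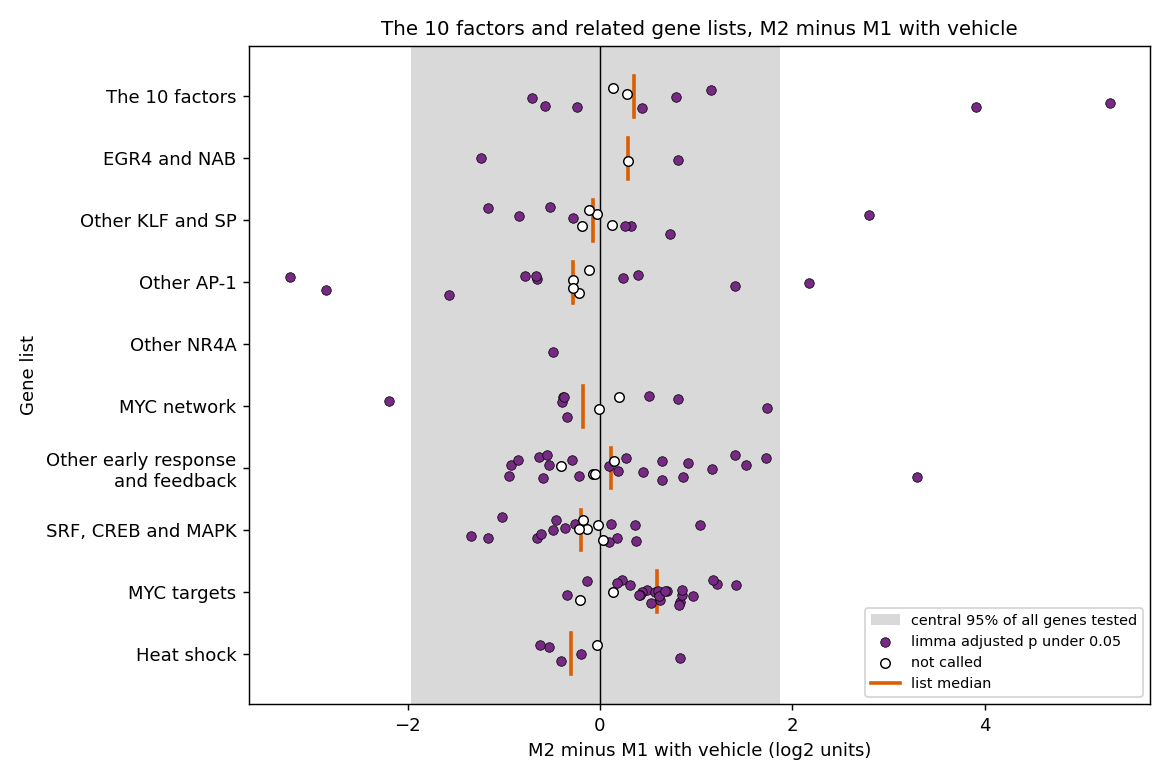
M2 minus M1 difference with vehicle (log2 units) for the 10 factors and 9 related gene lists, 1 point per gene at the floor. Filled points were called by limma, open points were not, the vertical marks are list medians and the grey band holds the central 95% of all genes tested.

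The genes with the most similar profile were sought by the Euclidean distance between log2 signals over the 4 arrays, each gene centred on its own mean, among 10017 genes. Nearest to Egr2 were Tmem26 at 0.171, the mannose receptor gene Mrc1 at 0.217 and the retinol carrier gene Rbp4 at 0.253 log2 units. Their M2 minus M1 differences with vehicle were 5.35, 5.31 and 5.24. Tmem26 and Rbp4, like Egr2, read under the floor on both M1 arrays, so these differences and the order of the distances are uncertain. Nearest to Fos, the gene with the most negative difference among the 10, were Vps9d1 at 0.0661, the histone deacetylase gene Hdac7 at 0.0952 and Bicral at 0.101. With 4 arrays, of which the phenotype sets most of the spread, the distance mainly orders genes by their M2 minus M1 difference.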

How the data were processed

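The authors' deposited log2 signals, 1 value per probe set and array, were made, per the submitters' processing notes, by RMA in the Affymetrix Expression Console; versions, settings and build are not given in the sources used here. RMA quantile-normalises arrays and compresses differences among dim probe sets. That the scale is log2 was read from the values (3.093 to 14.47). With 4 arrays, their number limits the precision.

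Only the 21789 of 35556 probe sets with 1 gene in GEO's platform annotation were used, averaged per gene. A gene entered a comparison when at least 1 of its arrays reached the floor, the median over genes of the mean signal (7.653), and counted as higher or lower at 2-fold. limma 3.58.1 in R 4.3.3 (lmFit, eBayes with trend, additive terms for phenotype and treatment, Benjamini-Hochberg threshold 0.05) had 1 residual degree of freedom and 10.26 from the prior. Whether the arrays stem from separate cultures or animals is not in the labels. The steps were tested on simulated data with a phenotype effect alone and noise sized from the M1 arrays. Unequal responses to IL-1α were not simulated. The genes and lists were chosen with earlier results of these data known. Named list genes were up to the 2 highest and 2 lowest of each list in the vehicle comparison; similar genes were named for the factors with the highest and lowest difference. Alternatives were a 1.5-fold threshold, other floors, loess centring, quantile normalisation, the brightest probe set, probe sets with several symbols, and eBayes without trend or robust. Promoter windows are RefSeq's (GRCm38.p6).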

Additional observations from a re-analysis of the deposited data

Results flagged for a closer look

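The IL-1α difference had opposite signs in M2 and M1 for 4 of the 10 factors. Signs were mixed over all genes too, with 69.6% above 0 in M2 and 49.1% in M1. The share of all genes with opposite signs was not computed, so no conclusion about the factors is drawn from this count. For Myc both M1 signals lay under the floor. M2 minus M1, the difference of responses was -0.54 for Klf2, -0.17 for Egr3, 0.27 for Junb and 0.27 for Myc. For Klf2 and Egr3 the M2 minus M1 difference also had opposite signs with IL-1α and with vehicle (-0.27 and 0.28 for Klf2, -0.03 and 0.14 for Egr3). Among the related genes named, Odc1 did so too, with M2 minus M1 higher by 0.22 with IL-1α than with vehicle. None of these differences was tested, and no sign rests on more than 1 pair of arrays.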

How the results depend on the processing

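No call of the 10 factors changed in limma under any alternative that kept the gene at the floor: Egr1, Egr2, Klf4, Fos, Jun, Junb, Nr4a1 and Myc passed for phenotype throughout, and Egr3 and Klf2 never did. A floor at the 75th percentile (9.633) left Nr4a1, Klf2 and Egr3 out of the fit, so that 2 factors, not 3, counted as 2-fold higher in M2. Of 454 factor values recomputed, all lay within 0.1 of the reported value or kept their call. Many of them could not change. Each factor has 1 probe set, so its differences do not depend on the floor or the brightest probe set, and eBayes settings leave effects as they are. Only loess centring and quantile normalisation moved the differences. The small M2 minus M1 difference of Egr3 with IL-1α changed sign under loess centring (0.00 against -0.03). At 1.5-fold, M2 was higher than M1 in 5 factors and lower in 1 with IL-1α, and higher in 4 and lower in 1 with vehicle. Over all genes at 1.5-fold, 1730 of 10365 were higher and 1192 lower in M2 with IL-1α, and 1467 of 10384 higher and 1395 lower with vehicle. IL-1α gave 90 higher of 10168 in M2, and 2 higher and 4 lower of 9895 in M1. The difference of responses gave 106 higher and 15 lower of 10512. Without a floor, 1 gene was lower with IL-1α in M1 and 4 had a negative difference of responses at 2-fold. With the floor at the 75th percentile, 533 genes were higher in M2 with IL-1α and 429 with vehicle, 19 were higher with IL-1α in M2, and limma called 2232 genes higher in M2 and 1 gene higher with IL-1α, as robust eBayes also did (1 gene); fewer genes enter that fit. No paired analysis was possible because each group holds 1 array and the labels give no replicate numbers. Leaving out an array leaves no residual degree of freedom. Dim signals limit the sizes for Egr2, Myc and Nr4a1 in M1.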
